A study of Drosophila melanogaster with 12 samples.

Results

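The genes described here are 6 transcriptional regulators that set wing identity and wing patterning in Drosophila melanogaster: vestigial (vg), scalloped (sd), apterous (ap), nubbin (nub), POU domain protein 2 (pdm2) and cut (ct). They were chosen by symbol, with earlier results of these data known. All 6 were found among the 13946 protein-coding genes used from a Release 6 gene table. Each gene was taken with 10 kb on both sides, and these windows together span 319907 bp. The windows do not overlap each other. The study's 12 samples fall into 4 groups of 3 replicates, with a Ubx ChIP group and an input group for each of the haltere and wing imaginal discs, the larval tissues that form these appendages. All came from wild-type Canton S larvae at the wandering L3 stage. The endogenous Ultrabithorax (Ubx) protein was precipitated with a polyclonal antibody to its N-terminal part. The results below come from the peak lists of the 3 haltere ChIP libraries, described by their authors as independent biological replicates, and from the consensus list. The wing disc and input libraries were not analysed here.

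Ubx is the Hox protein that makes the appendage of the posterior thoracic segment a haltere, a small balancing organ, instead of a wing. Vestigial and Scalloped form the complex that switches on wing blade genes: Vestigial is the co-activator, and Scalloped, a TEAD family protein, binds the DNA. Apterous is a LIM-homeodomain protein that selects the dorsal compartment, Nubbin and Pdm2 are closely related POU-homeodomain proteins encoded by neighbouring genes, and Cut is a homeodomain protein of the wing margin. In genetic studies, Ubx is known to repress parts of the wing programme in the haltere, including activity of a vg enhancer.

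The authors' lists hold 2869, 2361 and 3859 peaks in replicates 1, 2 and 3. Each carries a fold enrichment, the linear ratio of ChIP signal to background at the summit as the peak caller gave it. The median fold of the whole list was 4.35, 4.05 and 4.40 in replicates 1, 2 and 3. The consensus list has 2171 regions, of which 927 were overlapped by peaks of all 3 libraries. Read depth is unknown, so a gene without a peak is one where none passed the authors' threshold, and folds are ranked only within a library: a percentile of 95 means a fold at or above that of 95% of the list. The lists hold no expression values, so the tissue label was not checked against marker genes. With peak lists from only 1 group there is no contrast to test, and no p-value is given.

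Ubx peaks were concentrated at 2 of the 6 genes. The window of vg held 4, 2 and 7 peaks in replicates 1, 2 and 3. The window of nub held 5, 4 and 6 peaks. At sd there was 1 peak in replicate 1, 0 in replicate 2 and 1 in replicate 3. At ap there was 1 peak in replicate 3 and at pdm2 1 peak in replicate 2, with 0 in the other libraries, and ct had 0 peaks in all 3 libraries. In all, the windows held 10, 7 and 15 peaks in replicates 1, 2 and 3.

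**Figure D1:**
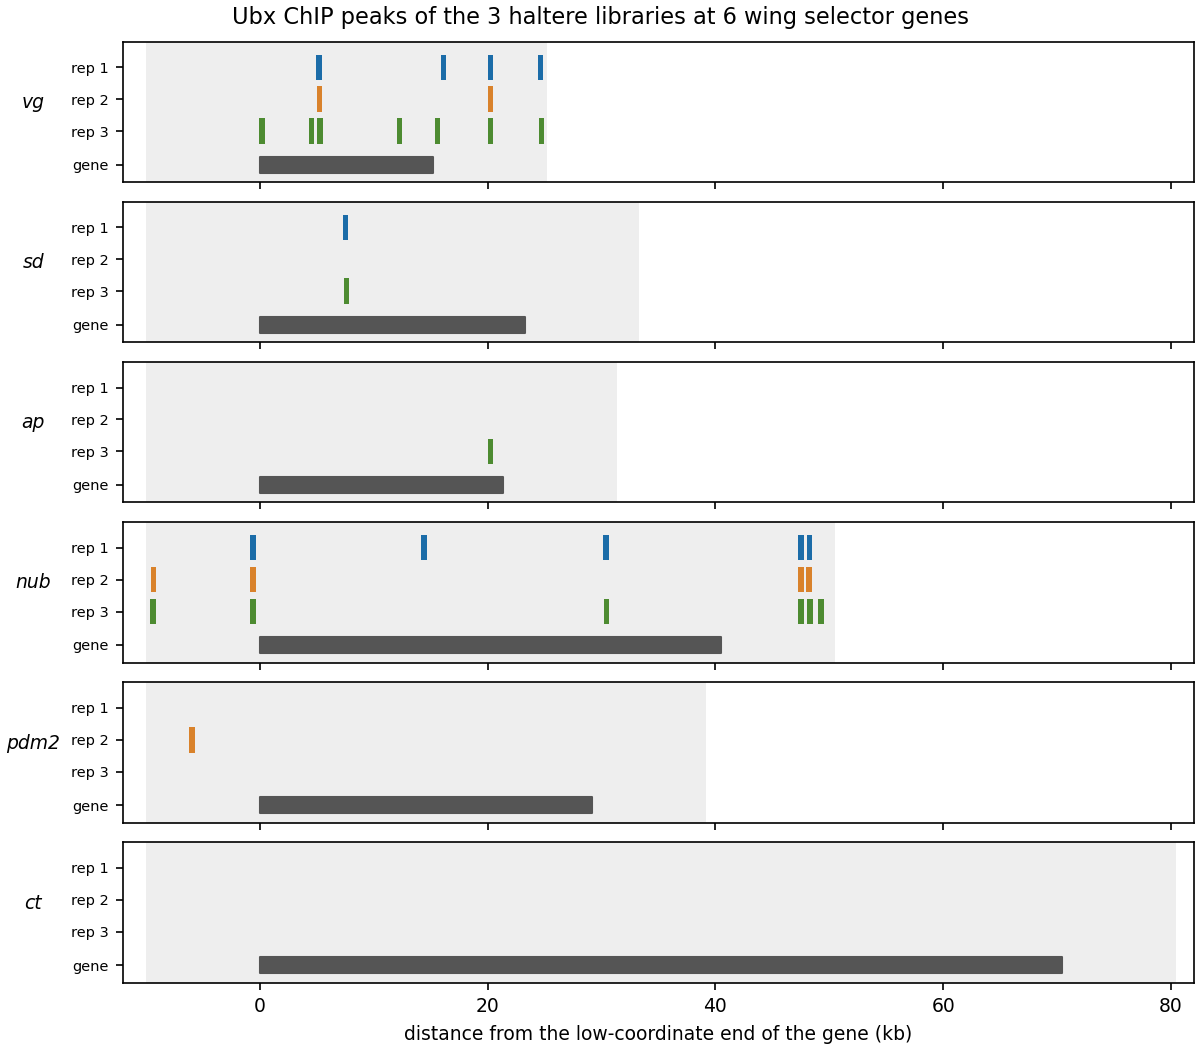
Peaks of the 3 haltere Ubx ChIP libraries (rep 1, rep 2, rep 3) at the 6 genes, drawn to one scale along the distance from each gene's low-coordinate end in kb. The dark bar is the gene, the grey field is the gene with 10 kb on both sides, and coloured marks of fixed width are centred on the peaks. The marks line up in all 3 libraries at 2 places for vg and at 3 places for nub, and ct has no mark.

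A consensus region lay in the window of 3 of the 6 genes, vg, nub and sd, and a region present in all 3 libraries lay at 2 of them, vg and nub. Among all protein-coding genes the same criteria were met by 17.7% and 8.76%. All members except vg are at least 20 kb long, and longer genes leave more room for a region. Among the 1019 protein-coding genes of at least 20 kb the shares were 39.6% for a consensus region and 22.5% for a region in all 3 libraries. With 6 genes, counts of 3 and 2 lie close to those shares. By library, 3 members had a peak in replicate 1, 3 in replicate 2 and 4 in replicate 3, against 60.7%, 49.6% and 60.0% of the long genes and 28.9%, 21.3% and 32.0% of all protein-coding genes.

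The 6 windows held 9 consensus regions, 5 of them in all 3 libraries and 4 in 2 libraries. Their density was 2.81 regions per 100 kb, against 1.60 per 100 kb over the 6 chromosome arms. This average hides an uneven spread. The density was 8.53 per 100 kb at vg, against 1.59 on 2R, and 8.26 at nub, against 2.28 on 2L. At sd it was 2.31, against 0.99 on X. The 90432 bp window of ct held none, at an average of 0.99 regions per 100 kb on X.

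**Figure D2:**
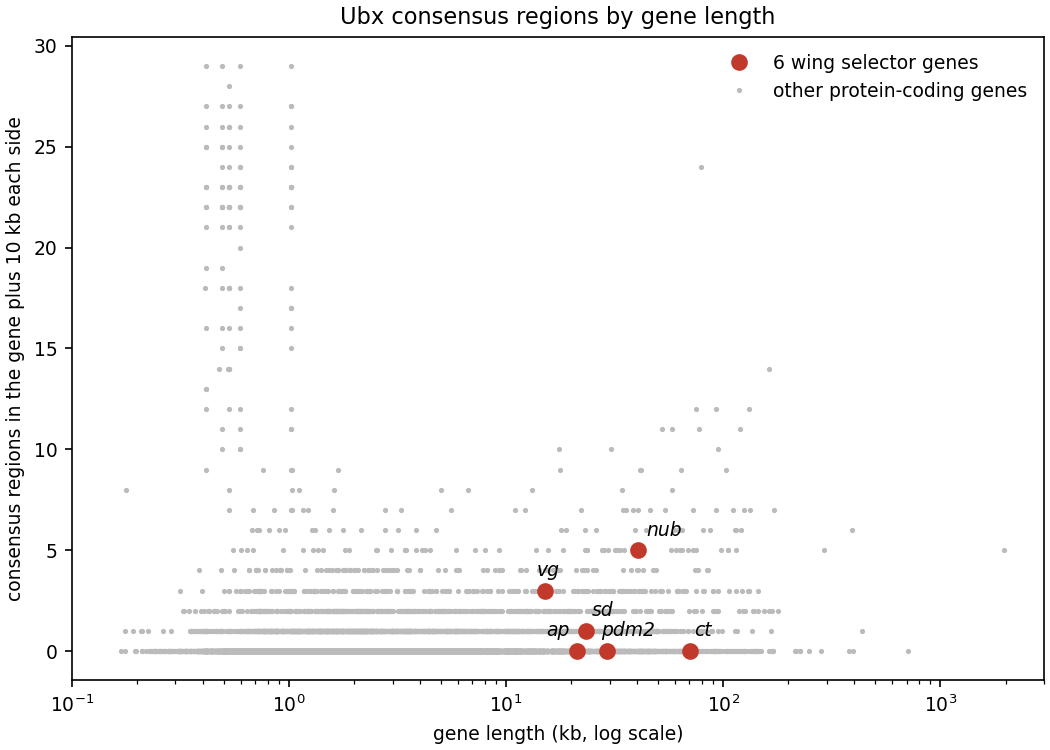
Number of consensus regions in each gene with 10 kb on both sides against gene length in kb (log scale), with the 6 wing selector genes in red and the other protein-coding genes in grey. The gene nub has 5 regions, vg 3 and sd 1, and ap, pdm2 and ct lie at 0; the 107 genes under 2 kb with at least 10 regions are all histone genes.

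The number of regions at nub, 5, was reached by 7.07% of protein-coding genes of at least 20 kb and by 1.81% of all protein-coding genes. The 3 regions at vg were reached by 15.0% of the long genes and by 3.98% of all genes, although vg itself is only 15185 bp long. At least as many regions in all 3 libraries as the 3 at nub were found at 5.89% of the long genes and 1.26% of all genes, and at least as many as the 2 at vg at 10.1% and 2.94%. The shares of all genes with at least 5 or at least 3 consensus regions include 111 histone genes of the repeated cluster. None of these is among the long genes. Without them, 1.02% of all protein-coding genes had at least 5 regions and 3.21% had at least 3. The shares with at least 3 and at least 2 regions in all 3 libraries include 9 and 40 histone genes. Without those, they were 1.21% and 2.67%.

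The gene vg (gene ID 36421, Dmel_CG3830) spans 2R:12884201-12899385. It holds the member region with the highest mean percentile of fold. This region, 2R:12889079-12889824, lies wholly inside the gene, from 4878 to 5623 bp from the low-coordinate end, which is 32.1 to 37.0% of the way along the gene's extent. The gene table gives no strand, exons or introns, so the region could not be assigned to an intron or to a named vg enhancer.

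The fold of the internal vg region was 8.04, 11.3 and 7.36 in replicates 1, 2 and 3. These folds ranked 138.5 of 2869 (a tie), 11 of 2361 and 421 of 3859 within the lists. All 3 libraries therefore had this peak high in their lists, at the percentiles 95.2, 99.6 and 89.1, a mean of 94.6 ± 5.25 (SD, n = 3). The deposited −log10 q-value was 20.9, 47.8 and 30.8. Ordered by mean percentile, the region stood 69th of the 927 regions in all 3 libraries. At 746 bp it was also broad: the median region in all 3 libraries was 300 bp wide, and 2.59% of them were at least as wide as this one. The summits of the 3 libraries lay within 213 bp, against a median spread of 71 bp and an upper quartile of 152 bp over the 927 regions.

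The second vg region in all 3 libraries lies outside the gene, at 2R:12904371-12904559, 4986 bp beyond the high-coordinate end. Its position overlaps 2 annotated long non-coding RNA genes, lncRNA:CR46336 and lncRNA:CR46337. Its fold was 3.16, 4.60 and 4.74 in replicates 1, 2 and 3. The percentiles were 5.26, 65.9 and 59.4, so that replicate 1 had it near the bottom of its list and the other libraries somewhat above the middle. The summits nevertheless lay within 59 bp of each other. By mean percentile this region ranked 825 of the 927 regions in all 3 libraries. One more region, 2R:12908775-12908942, was found in replicates 1 and 3 at 9390 bp from the gene, with folds of 4.21 and 2.88, both below the list median. It lies nearer to the protein-coding gene NAT1, which starts 16609 bp beyond vg, than to vg.

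**Figure D3:**
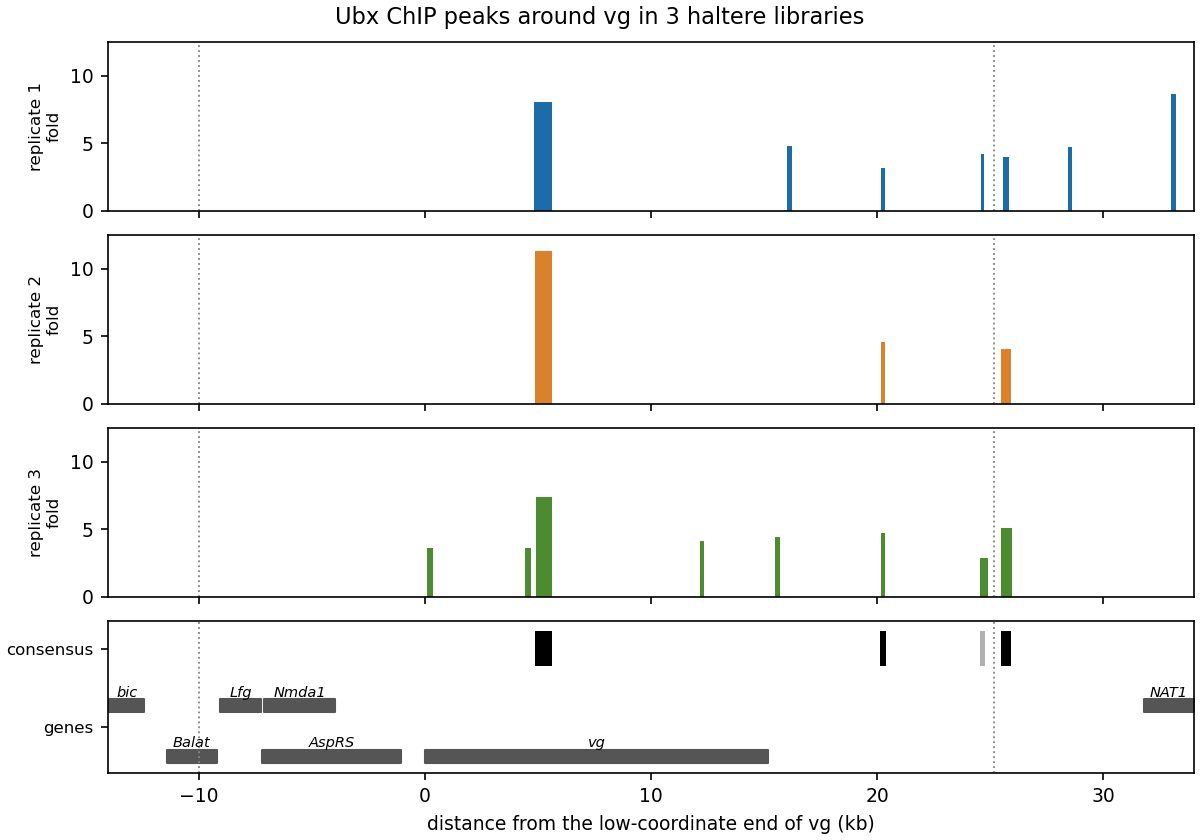
Fold enrichment (linear ratio) of each peak in the 3 haltere libraries, and the consensus regions (black, all 3 libraries; grey, 2 libraries) with the protein-coding genes, along the distance from the low-coordinate end of vg in kb. Dotted lines mark 10 kb on both sides of vg. The tall, broad peak inside vg is present in every library, at folds of 8.04, 11.3 and 7.36, and a region in all 3 libraries lies just past the dotted line on the right.

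Other peaks in the vg window were called in 1 library only. Replicate 3 had 3 such peaks inside the gene. One lay 104 to 345 bp from the low-coordinate end with a fold of 3.60, one lay 4425 to 4681 bp from it, just before the shared region, with a fold of 3.59, and one lay 12180 to 12363 bp from it with a fold of 4.10. None of the 3 exceeded the list median of 4.40. Beyond the high-coordinate end, replicate 1 had a peak at 843 bp (fold 4.79) and replicate 3 a peak at 298 bp (fold 4.41). These 2 peaks do not touch: 311 bp separate them and their summits are 550 bp apart.

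Scalloped is the DNA-binding partner of Vestigial. Its gene sd (gene ID 32536, Dmel_CG8544), X:15804370-15827682, had 1 consensus region, X:15811904-15812069, inside the gene. The region starts 7534 bp from the low-coordinate end, at 32.3% of the gene's extent. The fold was 3.64 in replicate 1 and 4.31 in replicate 3, and no peak was called in replicate 2. Both values were below the medians of their lists, at the percentiles 18.9 and 47.6. The 2 summits were 5 bp apart. The protein-coding gene CG8509 also lies within sd, but the region does not overlap it.

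The POU gene nub (gene ID 34669, Dmel_CG34395), 2L:12587625-12628135, had the most regions of the group. All 3 of its regions in all 3 libraries lie outside the gene itself, on both sides of it. The nearest, 2L:12586919-12587151, lies 474 bp from the low-coordinate end. Its fold was 4.63, 4.61 and 5.55 in replicates 1, 2 and 3. This region was above the middle of every list, at the percentiles 58.6, 66.0 and 74.4, a mean of 66.3 ± 7.88 (SD, n = 3). Among the 927 regions in all 3 libraries, whose median mean percentile was 71.1, it ranked 552. Its summits lay within 51 bp.

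On the other side of nub, 2 regions in all 3 libraries lie close together at 6860 and 7582 bp from the high-coordinate end. The first, 2L:12634995-12635313, had folds of 4.56, 5.72 and 8.29 in replicates 1, 2 and 3. It was the strongest nub region by mean percentile among those in all 3 libraries (77.9 ± 18.8; SD, n = 3), with its lowest rank in replicate 1. In replicate 3 it ranked 262 of 3859, above the internal vg region, whereas replicates 1 and 2 had the vg region higher. The second, 2L:12635717-12636209, had folds of 4.71, 3.10 and 4.15, and here replicate 1 ranked it highest, at the percentile 61.0, against 11.5 and 42.7. Its summits were spread over 261 bp, the widest spread of the 5 member regions in all 3 libraries. By mean percentile, the first ranked 350 and the second 855 of the 927 regions in all 3 libraries.

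The other 2 regions at nub came from different pairs of libraries. The region 2L:12578205-12578412, 9213 bp before the low-coordinate end, had folds of 5.62 in replicate 2 and 7.08 in replicate 3. These are high ranks, at the percentiles 82.7 and 87.6, yet replicate 1 had no peak there. The region 2L:12617905-12618189 is the single consensus region inside nub, from 74.7 to 75.4% of its extent, with folds of 4.14 in replicate 1 and 3.57 in replicate 3. By fold it sat lower in both lists, at the percentiles 40.9 and 22.6. Ranked by −log10 q-value, it stood at the percentile 76.1 in replicate 1 and 25.4 in replicate 3. One further peak inside nub was called in replicate 1 only (fold 4.25), and one in the flank in replicate 3 only (fold 4.77).

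Positions alone do not tie the nub regions to nub. The gene Ref2, which is 35840 bp long, overlaps 17619 bp of nub and runs on towards pdm2, so the internal nub region and both regions beyond its high-coordinate end also lie inside Ref2. Which gene these regions act on was not tested.

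**Figure D4:**
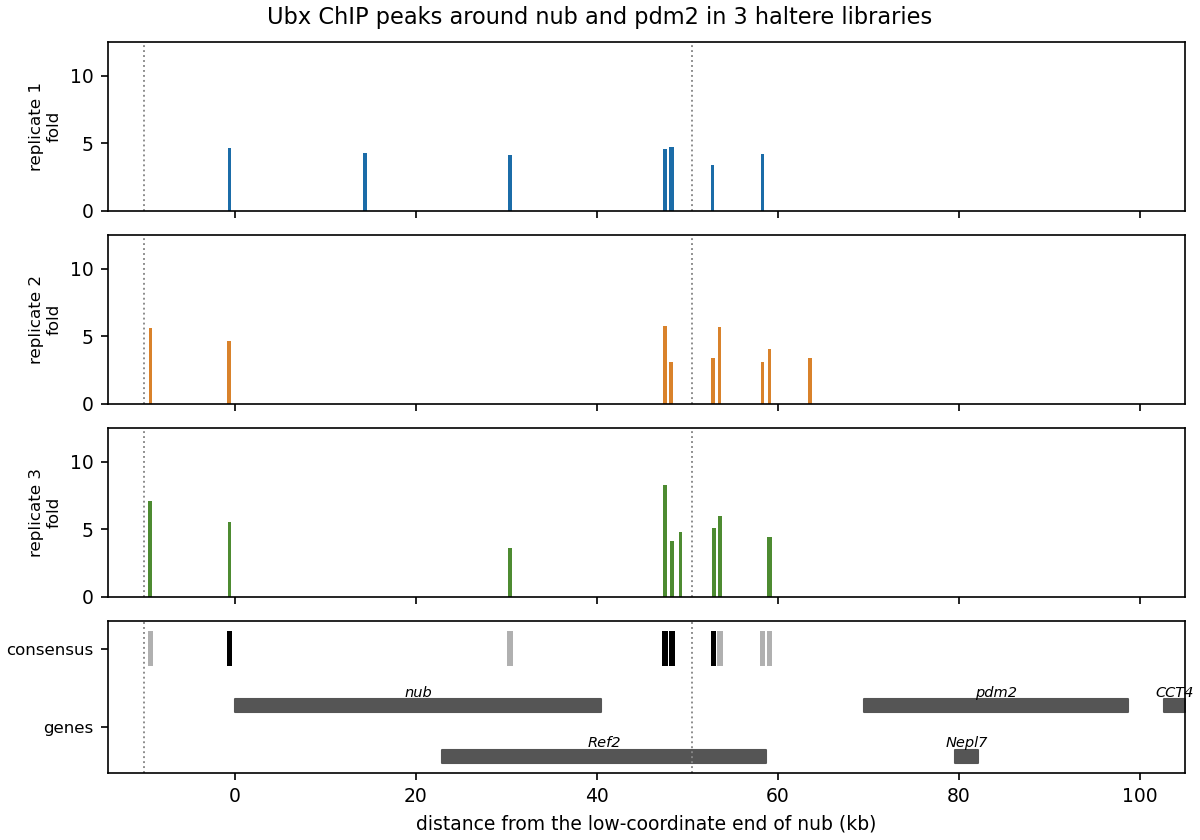
Fold enrichment (linear ratio) of each peak in the 3 haltere libraries, and the consensus regions (black, all 3 libraries; grey, 2 libraries) with the protein-coding genes, along the distance from the low-coordinate end of nub in kb. Dotted lines mark 10 kb on both sides of nub. Peaks crowd between nub and pdm2, and none lies inside pdm2.

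The paralogous gene pdm2 (gene ID 34673, Dmel_CG12287), 2L:12657165-12686306, had no peak inside it in any library. Its window held 1 peak, in replicate 2, 5864 bp before the low-coordinate end, with a fold of 3.41 at the percentile 23.3 of that list. The 10 kb limit decides this count, as the interval between the 2 POU genes was rich in regions. These 29029 bp held 4, 7 and 6 peaks in replicates 1, 2 and 3, and 6 consensus regions, 3 of them in all 3 libraries, a density of 20.7 per 100 kb. Of the 6 regions, 4 lie nearer to nub and 2 nearer to pdm2, and 5 overlap Ref2. The interval was chosen for description after its values were seen.

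The region in all 3 libraries that lies deepest in that interval, 2L:12640383-12640614, lies 12248 bp from nub and 16551 bp from pdm2. Its folds were 3.35, 3.37 and 5.12 in replicates 1, 2 and 3. A neighbour in replicates 2 and 3, 2L:12641133-12641332, was stronger, with folds of 5.66 and 5.99. The region nearest to pdm2, 2L:12646653-12646820, falls just outside its window at 10345 bp, with folds of 4.08 in replicate 2 and 4.40 in replicate 3. With 20 kb on both sides, 4 consensus regions fell to pdm2, and all 3 libraries shared 1 of these. The windows of nub and pdm2 overlap at this width. All 4 regions also lie within 20 kb of nub and are among the 9 counted there. The 1 in all 3 libraries is nearer to nub. At that distance 47.2% of the protein-coding genes of at least 20 kb had a consensus region and 28.1% had a region in all 3 libraries, as did 29.3% and 15.7% of all protein-coding genes.

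Apterous, the dorsal selector, is encoded by ap (gene ID 35509, Dmel_CG8376) at 2R:5706202-5727525. Its window had 1 peak, 2R:5726345-5726576, near the high-coordinate end inside the gene. The peak was called in replicate 3 only, with a fold of 5.78 and a −log10 q-value of 12.9. At the percentile 77.2 of that list it ranked above most replicate 3 peaks, and replicates 1 and 2 had no peak anywhere in the window.

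The margin gene ct (gene ID 44540, Dmel_CG11387), X:7608428-7678859, is the longest of the group at 70432 bp. It had no peak in its window in any library, so no region could be described. Among genes of at least 20 kb, 60.7%, 49.6% and 60.0% had a peak within 10 kb in replicates 1, 2 and 3. A consensus region was found within 10 kb of 39.6% of these genes.

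Taking each peak once, the member peaks were ordinary in strength as a group. Their median fold was 4.41, 4.61 and 4.41 in replicates 1, 2 and 3, against 4.35, 4.05 and 4.40 for the whole lists. The median percentile was 52.1, 66.0 and 51.6, a mean of 56.6 ± 8.17 (SD, n = 3 libraries). The range ran from 5.26 to 95.2 in replicate 1, from 11.5 to 99.6 in replicate 2 and from 3.17 to 93.2 in replicate 3. In each library the highest and the lowest of these percentiles belonged to peaks at vg or nub.

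**Figure D5:**
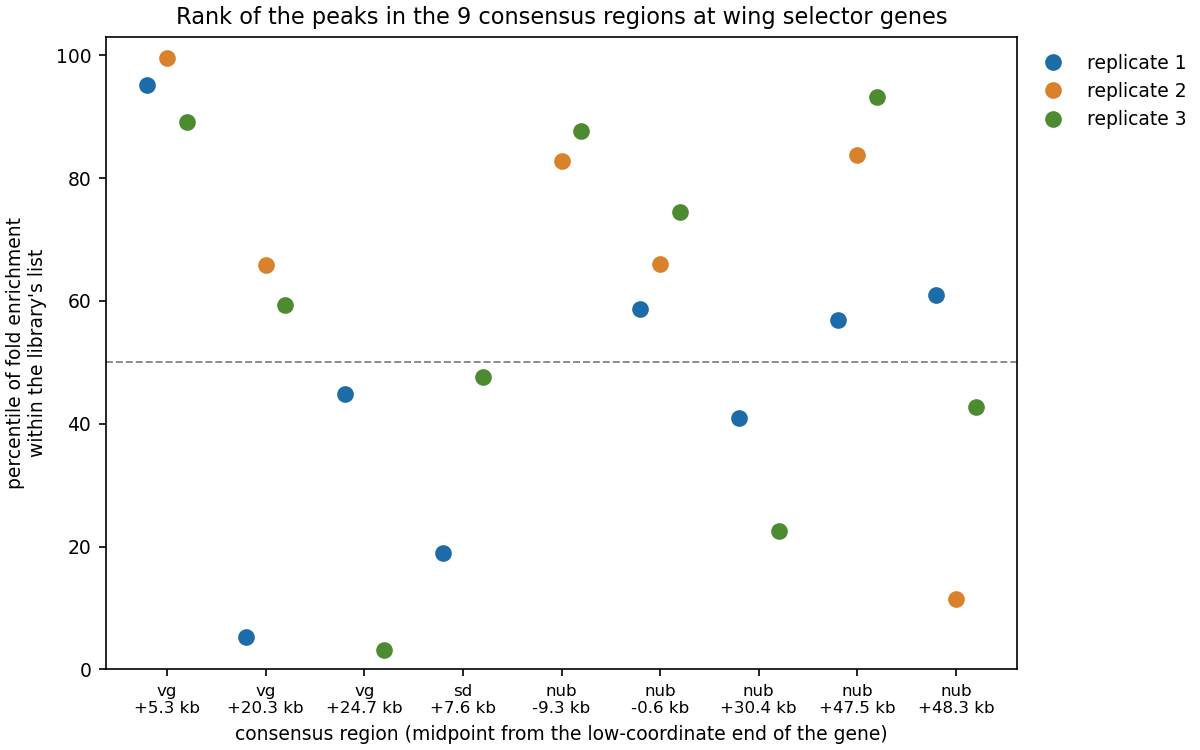
Percentile of fold enrichment within each library's own list for the peaks in the 9 consensus regions, with 1 point per library that has a peak there and the middle of the list as a dashed line. The region inside vg (+5.3 kb) is the only one of the 9 above the percentile 89 in every library, while other regions, such as the vg region at +20.3 kb, differ widely between libraries.

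Of the 32 member peaks, 23 overlapped a consensus region: 8 of 10 in replicate 1, 6 of 7 in replicate 2 and 9 of 15 in replicate 3. Over the whole lists 48.7%, 73.9% and 53.4% of peaks did so. The 9 remaining peaks were 2 from replicate 1, 1 from replicate 2 and 6 from replicate 3, the longest list.

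A list of 21 genes that act with these regulators was read by the same windows. A consensus region lay at 14 of the 21 and a region in all 3 libraries at 13. The list was chosen with earlier results of these data known, so its counts are a description. Of its genes, 11 are at least 20 kb long, and 9 of these had a consensus region, all 9 with one in all 3 libraries, against the 39.6% and 22.5% of long genes given above. Of the 10 shorter genes, 5 had a consensus region and 4 had one in all 3 libraries, against 17.7% and 8.76% of protein-coding genes of any length. Among 10 partners and targets of Apterous, 6 had a region in all 3 libraries, although ap itself had none. They include Ser, the Notch ligand Serrate (5 such regions), fng, which encodes a glycosyltransferase that modifies Notch (3), and Bx, which encodes the Apterous antagonist dLMO (3). The Apterous cofactor gene Chi had 0 peaks in all 3 libraries. The genes Ssdp, caps and trn of this list also had no region in all 3 libraries.

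Among 8 partners, inputs and targets of Vestigial and Scalloped, 5 had a region in all 3 libraries. The share was 22.5% of protein-coding genes of at least 20 kb and 8.76% of all protein-coding genes. The homeodomain gene Dll had 3, and the strongest, 173 bp from the gene, had folds of 11.4, 6.62 and 6.13 in replicates 1, 2 and 3. The gene Tgi, which encodes a corepressor that binds Scalloped, had 1 inside it, with folds of 6.35, 5.79 and 5.61. The gene yki, which encodes the other main co-activator of Scalloped, had 0 peaks in all 3 libraries. The genes Su(H) and wg also had no region in all 3 libraries. Of 3 genes that neighbour nubbin in the wing network, nab had 2 such regions and zfh2 had 3, while rn had peaks in replicates 1 and 3 but no consensus region.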

How the data were processed

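Per the submitters' processing notes, reads were handled with Trimmomatic 0.36, BWA and MACS2 on build BDGP6. MACS2 options and duplicate handling are not given in the sources used here. The authors deposited 1 peak list per haltere ChIP library, each row giving a peak's score, linear fold ratio and significance as −log10 p-value and −log10 q-value; folds and q-values served to describe and rank peaks of the same list. In every row the deposited score is 10 times the −log10 q-value, cut to a whole number. All 2171 deposited consensus regions had the start and end of a stretch covered by peaks of at least 2 libraries. Gene positions came from an NCBI RefSeq table of Release 6, the assembly that BDGP6 names. Positions are 1-based. Overlap meant at least 1 bp, and tied folds shared a mean rank. Python 3.11.15, numpy 2.4.6 and pandas 2.3.3 were used, and the overlap functions were tested on simulated intervals. Read depth is unknown. All members are named, and both they and the 21 related genes were chosen with earlier results of these data known. Sequence was not used.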

Additional observations from a re-analysis of the deposited data

How the results depend on the processing

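The count of members with a region in all libraries used was 2 as reported, 1 when only the gene body counted, and 3 with 20 kb on both sides. It was 2 to 3 across the 3 settings that each left out 1 replicate. The 3 without replicate 2 adds sd. Members with a consensus region numbered 3 as reported, 4 with 20 kb on both sides, 2 in the strongest 50% of the lists, and 2 to 3 with a replicate left out. The number of consensus regions, 9 as reported, was 3 in gene bodies, 4 with 2 kb, 5 with 5 kb and 14 with 20 kb on both sides, 5 in the strongest 50% of the lists, and 5 to 8 with a replicate left out, the 5 being without replicate 3. The number in all libraries used, 5 as reported, was 1 in gene bodies, 2 with 2 kb, 3 with 5 kb and 7 with 20 kb. It was 3 at a −log10 q-value of at least 5 and 3 in the strongest 50%. With a replicate left out it was 5 to 8, the 8 being without replicate 2, when only 2 lists had to share a region. Peaks in replicates 1, 2 and 3, which were 10, 7 and 15 as reported, were 4, 1 and 7 in gene bodies and 6, 2 and 9 with 2 kb. Replicate 2 had 3 with 5 kb. With 20 kb, replicate 1 had 17 and replicate 2 had 12. Narrower windows and stricter lists can only remove peaks. Requiring 50% of a region to be covered left the counts of members and regions in all 3 libraries as reported. The counts of consensus regions could not change under that rule, as at least 2 libraries cover every base of such a region. Requiring the summit in the window left the peak totals as reported. The mean of the library median percentiles, 56.6, was 58.0 when ranked by −log10 q-value and 51.9 to 59.0 with a replicate left out. Of 228 values for single genes, 48 moved by more than 1.5 times. The motif counts and their alternative were not run, as no sequence was used. No paired analysis was possible because the values come from a single group and no test was made. Unknown depth limits every absence of a peak.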

Other observations

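Regions further than 10 kb from the genes, looked at up to 25 kb, are mentioned because of values already seen. A region in all 3 libraries, 2R:12909699-12910121, lay 10314 bp beyond vg, just past the window, with folds of 3.96, 4.08 and 5.12 in replicates 1, 2 and 3. Replicate 1 alone had a peak 17828 bp beyond vg with a fold of 8.61, above its fold of 8.04 inside vg. This peak lies inside another protein-coding gene, NAT1, which starts 16609 bp beyond vg. The region at 10314 bp is also nearer to NAT1 than to vg. Which gene the peak or the region acts on was not tested.

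Around ap, whose window held only a replicate 3 peak, a region in all 3 libraries lay 23729 bp beyond the high-coordinate end, 2R:5751254-5751512. Its folds were 3.68, 4.66 and 6.07 in replicates 1, 2 and 3. A second region there, in replicates 1 and 3, lay at 21896 bp with folds of 3.47 and 4.05. Another protein-coding gene starts 26992 bp beyond the same end of ap, and both regions are nearer to that gene than to ap. Which gene these regions act on was not tested. Near ct, replicate 1 had 1 peak, 18178 bp from the gene, with a fold of 5.95, and replicates 2 and 3 had 0 peaks within 25 kb. That replicate 1 peak lies inside another protein-coding gene, CHES-1-like.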
